A study of Mus musculus with 46 samples.

Results

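The members are 22 candidate cis-regulatory elements (cCREs) in and around the mouse Tfcp2l1 gene, out of 232 cCREs in the Tfcp2l1 library of this series. They were chosen by position, as the cCREs whose start lies in a 214 kb window of chromosome 1, from just before Tfcp2l1 to the edge of the next gene, Gli2 (mm10, the build named in the submitters' processing notes). The choice was not by position alone, since E060, E076 and E080 start in the same window and were set aside by name, as was E031, a fragment outside the window. The assay was a massively parallel reporter assay, in which each DNA fragment drives a barcoded reporter on a plasmid, and the barcode's share in RNA over its share in the plasmid input gives an activity. All values came from mouse embryonic stem cells of the line E14TG2a, kept in 2i+LIF medium. The Tfcp2l1 Upstream plasmids were brought in by nucleofection in experiments of their own, with 3 biological replicates of 16000000 cells each, and reporter RNA was taken after 24 h and set against 2 plasmid DNA replicates.

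There was no treated group, so every comparison is between constructs measured in the same 3 RNA samples. A cCRE was tested by itself, upstream of 1 of 26 promoter fragments (a cCRE with promoter pair), or next to another cCRE (a cCRE pair, with no promoter fragment). Single fragments and pairs were separate plasmid pools. The replicates share those plasmids, so their spread leaves out how the barcoded plasmids that carry 1 construct differ. No read or barcode number entered the analysis, and the depth behind each activity is unknown. The assay reads a fragment outside its chromosome, away from its native distance to Tfcp2l1.

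Tfcp2l1 encodes a transcription factor of the grainyhead family that belongs to the network keeping mouse embryonic stem cells in the naive state, downstream of LIF signalling. Enhancers are stretches of DNA bound by such factors that raise transcription from a promoter, in principle in either orientation and from a distance. Promoters differ in how active they are by themselves and in how far an enhancer can raise them.

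Each fragment spans 450 bp between its listed ends, and Tfcp2l1 lies at chr1:118627923-118685168 on the plus strand in RefSeq (GRCm38.p6). 3 members lie before the gene: E051 at chr1:118622758-118623208, E053 at chr1:118625927-118626377 and E054 at chr1:118626413-118626863. The distance from the listed end to the gene's first base is 4715 bp for E051, 1546 bp for E053 and 1060 bp for E054. 7 members lie within the gene: E055 at chr1:118633556-118634006, E057 at chr1:118642444-118642894, E058 at chr1:118642739-118643189, E059 at chr1:118645709-118646159, E061 at chr1:118657818-118658268, E062 at chr1:118663028-118663478 and E063 at chr1:118674120-118674570. Whether these are exonic or intronic was not analysed here. 12 members lie beyond it, before Gli2 (chr1:118834061-119054405), a transcription factor gene of the Hedgehog pathway. They are E064 at chr1:118687636-118688086, E065 at chr1:118689830-118690280, E066 at chr1:118720634-118721084, E067 at chr1:118728954-118729404, E068 at chr1:118729988-118730438, E071 at chr1:118740997-118741447, E072 at chr1:118748167-118748617, E073 at chr1:118748625-118749075, E074 at chr1:118756836-118757286, E075 at chr1:118757327-118757777, E077 at chr1:118768807-118769257 and E078 at chr1:118772246-118772696. E057 and E058 overlap by 156 bp and so share sequence. The gaps are 7 bp between E072 and E073, 35 bp between E053 and E054 and 40 bp between E074 and E075.

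2 of the promoter fragments, P011 at chr1:118627569-118628019 and P012 at chr1:118627992-118628442, overlap by 28 bp and lie around the start of Tfcp2l1. Only P011 holds the gene's first base, and P012 begins after it, within the gene. The stretch just before the gene's first base is shown because the members' effect on these fragments is described further on. It is 228 bases of RefSeq sequence on the plus strand, chr1:118627695-118627922 (GRCm38.p6), lies within P011, and has the letters TATAAA in capitals.
Tfcp2l1 start region: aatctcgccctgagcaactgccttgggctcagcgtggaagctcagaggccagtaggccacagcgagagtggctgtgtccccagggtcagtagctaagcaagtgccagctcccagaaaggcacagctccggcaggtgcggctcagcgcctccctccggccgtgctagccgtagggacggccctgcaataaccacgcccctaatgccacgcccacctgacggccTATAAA
Its GC content is 63.6%. The letters TATAAA (or TTTATA, both strands searched) occur once in the stretch, at its very end, and in 11.6% of the 32851 mouse promoter windows. The GC box letters GGGCGG (or CCGCCC) occur 0 times, against 29.5% of windows with a match, and CCAAT (or ATTGG) 0 times, against 31.9%; these windows also hold the first transcribed bases and are therefore longer. A match is a description of letters and not of a bound site.

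Alone, without a promoter fragment, E071 was the most active member. The plus and minus signs after a name give the orientation in the construct as the deposited table lists it. E071+ had activities of 3.17, 3.28 and 3.14 in replicates 1 to 3, and E071- had 1.68, 1.86 and 1.75. Every one of these values lay above the medians of all single cCREs in the 3 replicates, which were 0.0812, 0.101 and 0.105. The log2 difference from that median was 5.07 for E071+ (SE 0.19, n = 3, limma adjusted p = 1.5e-07) and 4.21 for E071- (SE 0.19, n = 3, limma adjusted p = 4.61e-07). Throughout, limma is a moderated linear model over all constructs of a kind, with Benjamini-Hochberg adjustment over the whole library and a threshold of 0.05.

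E077 was active alone in 1 orientation. E077+ had activities of 1.26, 1.41 and 1.57, and E077- had 0.0223, 0.0541 and 0.0534, with no overlap. Against the median cCRE, E077+ was higher by 3.89 on the log2 scale (SE 0.20, n = 3, limma adjusted p = 7.08e-07) and E077- differed by -1.25 (SE 0.35, n = 3, limma adjusted p = 0.0141). E057+ followed with 0.774, 0.740 and 0.788, a log2 difference of 3.01 (SE 0.19, n = 3, limma adjusted p = 2.24e-06). E057- was lower, with a mean of 0.142 and a log2 difference of 0.57 (SE 0.19, n = 3, limma adjusted p = 0.0271).

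E062 was active alone in both orientations, with 0.366, 0.369 and 0.541 for E062+ and 0.525, 0.406 and 0.616 for E062-, ranges that overlap. E068+ had 0.380, 0.461 and 0.515, above the 0.0843, 0.117 and 0.115 of E068-. E072+ had 0.438, 0.462 and 0.499. The lowest log2 differences were -1.79 for E073- (activities 0.0133, 0.0417 and 0.0377), -1.74 for E067- and -1.65 for E053-. Over the 41 oriented member fragments with an alone value (E058 has none and E074 has 1 orientation), 15 were higher than the median cCRE, which is 36.6%, and 14 were lower, which is 34.1%. In the whole library 38.9% of single cCREs were higher and 30.3% were lower, 69.2% in either direction. Against the construct with no insert (0.161, 0.186 and 0.190), a baseline added after the data were seen, 8 of the 41 were higher and 24 lower. The table also lists an empty construct in the pool of pairs, at 0.0460, 0.0658 and 0.0654, below the empty construct of the single pool in every replicate. Which of them is the proper zero is not stated, and pairs and single fragments are compared here without adjusting for that gap. With 2 replicates the calls were 9 higher and 7 lower without replicate 2, and 6 lower without replicate 3.

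With a promoter fragment downstream, the members were measured by the boost index, the log2 of a pair's activity over the median of all cCREs placed before that promoter fragment, orientation kept. An index of 0 is therefore the activity with a typical cCRE, not with none. Of the 784 cCRE with promoter pairs of the members, out of 5599, 58 had a replicate at 0 and were left out. The zeros fell mostly in replicate 1, with 45 pairs at 0 there against 7 in replicate 2 and 15 in replicate 3. The median of the members' mean index was 0.057, against 0.10 over the 169 cCREs with at least 3 promoter fragments. 11 of 21 members (52.4%) and 92 of 169 cCREs (54.4%) had a mean above 0. E074 had no such pair.

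E071 had a mean index of 3.58 over 42 pairs with 15 promoter fragments, rank 5 in descending order of the 169 cCREs. Taken in each replicate by itself, the mean was 3.69, 3.33 and 3.20 (3.41 ± 0.25, SD, n = 3), each above the replicate values of every other member. The replicate values use the median cCRE of that replicate, and their mean was below the index for each of the 21 members. E062, within the gene, had an index of 1.54 over 30 pairs, with replicate values of 1.74, 0.77 and 1.58 (1.36 ± 0.52, SD, n = 3). E054, 1060 bp before the gene's first base, had an index of 1.26 over 43 pairs, with replicate values of 1.67, 0.90 and 0.70 (1.09 ± 0.51, SD, n = 3). These replicate ranges overlap, so E062 and E054 do not stand apart from each other.

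E057 had an index of 0.76 over 40 pairs, with replicate values of 0.98, 0.57 and 0.18 (0.58 ± 0.40, SD, n = 3). E068 had 0.54 over 67 pairs, with replicate values of 0.32, 0.30 and 0.41 (0.34 ± 0.058, SD, n = 3) and a median over pairs of 0.24. Those replicate ranges overlap as well. At the other end, E053 had -0.94 over 17 pairs, with replicate values of -1.25, -0.83 and -1.12 (-1.07 ± 0.22, SD, n = 3). E073 had -0.84 over 22 pairs, with -1.10, -0.98 and -0.98 (-1.02 ± 0.066, SD, n = 3). E067 had -0.63 over 15 pairs, with -0.77, -0.39 and -1.14 (-0.77 ± 0.37, SD, n = 3). The 3 had ranks 164, 163 and 158 of 169, and their replicate ranges overlapped, with all values below 0. E053 and E054 are neighbours 35 bp apart and stood at opposite ends, as their replicates did not overlap. The other 13 members had means from -0.32 (E051) to 0.49 (E061).

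Against the promoter fragment alone, 139 of the 705 tested member pairs were higher (19.7%) and 132 were lower (18.7%), with limma at an adjusted p under 0.05. Over all 4945 pairs tested, 23.8% were higher and 19.7% were lower. The median log2 change was -0.19 for the members and -0.20 for all pairs. E071 accounted for 41 of the 139 rises, and without it 98 of 663 were higher (14.8%) and 19.9% lower. Against the median construct of the same promoter instead, 157 were higher and 53 lower, a share of rises among calls of 74.8% in place of 51.3%. Against the cCRE alone, a baseline added after the data were seen, 290 of 714 pairs were higher and 170 lower. With 2 replicates the calls fell to 75 higher and 46 lower without replicate 2, and 85 and 47 without replicate 3.

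By place, 17 of 118 pairs of the 3 members before the gene were higher (14.4%) and 25 lower (21.2%). Of the 214 pairs of members within Tfcp2l1, 44 were higher (20.6%) and 37 lower (17.3%). Of the 373 pairs of members beyond the gene, 78 were higher (20.9%) and 70 lower (18.8%). Of those 78 rises, 41 were E071 pairs. No test of place was run, since the fragments of a place are few and share promoter fragments.

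The rises of single members were uneven, beside 23.8% higher and 19.7% lower over all 4945 pairs. 16 of 41 E054 pairs rose and 2 fell, 12 of 40 E057 pairs rose and 3 fell, 11 of 30 E062 pairs rose and 0 fell, and 12 of 65 E068 pairs rose and 6 fell. Leaving out a replicate gave 5 to 12 rises for E054, 6 to 13 for E057, 4 to 7 for E062 and 5 to 11 for E068, with the fewest rises without replicate 2 for E054, E057 and E068 and without replicate 3 for E062. Among members with falls, 8 of 17 E053 pairs fell and 0 rose, 8 of 21 E073 pairs fell and 1 rose, 18 of 71 E066 pairs fell and 6 rose, and 15 of 60 E051 pairs fell and 1 rose. The falls were 1 for E053 without replicate 2 and 3 without replicate 3, and for E066 5 in either case. For E051 they were 7 and 5, and for E073 5 without replicate 2. Against the median construct of the same promoter, 5 of 17 E053 pairs were lower and 0 higher, and 8 of 22 E073 pairs were lower and 1 higher. By that baseline E066 had 6 lower and 5 higher of 75 pairs, and E051 6 lower and 3 higher of 63. The members with rises were also set against the member alone, a baseline added after the data were seen. There 12 of 40 E057 pairs were higher and 19 lower, and 7 of 30 E062 pairs were higher and 15 lower. For E068 24 of 67 were higher and 20 lower, and for E054 21 of 43 were higher and 9 lower.

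E071 raised 41 of its 42 tested pairs. The exception was E071-P007-, with 0.784, 1.31 and 0.805 against 0.613, 0.680 and 0.716 for P007- alone, a log2 difference of 0.49 (SE 0.25, n = 3, limma adjusted p = 0.161). P007 overlaps Nifk. The pair's values all lay above those of the promoter alone. With 2 replicates 32 to 38 of the 42 were called.

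The size of E071's index differed with the promoter fragment. With the 8 fragments whose median construct had a log2 activity under -3, the mean index over 25 pairs was 4.59, from 3.07 to 5.70, and the replicate values averaged 4.34 ± 0.41 (SD, n = 3). With the other 7 fragments it was 2.09 over 17 pairs, from 0.68 to 4.11, with replicate values of 2.03 ± 0.15 (SD, n = 3). The activities themselves spanned -1.24 to 1.83 on the log2 scale for the first set and -0.090 to 3.55 for the other. By fragment, the mean index was highest with P012 (5.38, at Tfcp2l1) and P014 (5.23), and lowest with P007 (0.68) and P010 (1.10, at Clasp1). The split uses the median construct that also stands in the index, so it is a description. Set against E071 alone, 8 of the 42 pairs were higher and 19 lower.

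The 5 largest rises among the members' pairs came from E066, E061 and E071. E066+P031- had activities of 3.67, 4.91 and 4.12 against 0.0241, 0.0434 and 0.0586 for P031- alone, a log2 rise of 6.74 (SE 0.36, n = 3, limma adjusted p = 9.79e-05). The groups lie far apart. P031 overlaps C1ql2. The same cCRE turned round, E066-P031-, had 0.0259, 0.0452 and 0.0568, which overlaps the promoter alone (log2 difference 0.041). What sets this construct apart was not tested.

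E061-P015+ had 1.84, 1.88 and 1.96 against 0.0137, 0.0509 and 0.0418 for P015+ alone, a log2 rise of 5.94 (SE 0.51, n = 3, limma adjusted p = 0.000467). E061-P016- had 3.44, 2.77 and 3.41 against 0.0871, 0.107 and 0.112 for P016- alone, a log2 rise of 4.98 (SE 0.18, n = 3, limma adjusted p = 3.88e-05). P015 and P016 overlap no coding gene in RefSeq. E061 in the minus orientation had 5 pairs, with a mean index of 2.65, against -0.15 over its 17 pairs in the plus orientation. Its mean index of 0.49 had a median of -0.19.

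E071+P014+ had 2.76, 2.16 and 2.00 against 0.0281, 0.0592 and 0.0773 for P014+ alone, a log2 rise of 5.50 (SE 0.41, n = 3, limma adjusted p = 0.000272). E071-P014+ had 1.79, 1.35 and 1.67 against the same promoter values, a log2 rise of 4.98 (SE 0.40, n = 3, limma adjusted p = 0.000368). Both pairs lay above the promoter alone in every replicate. Against E071 alone in the same orientation the sign turned, with log2 differences of -0.48 and -0.14 (limma adjusted p = 0.0681 and 0.527).

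The 3 largest falls involved E073 and E066. E073-P021- had 0.0307, 0.00423 and 0.0390 against 0.290, 0.265 and 0.264 for P021- alone, and fell by 3.99 on the log2 scale (SE 0.87, n = 3, limma adjusted p = 0.0151). P021 overlaps Epb41l5. The replicates of the pair spread widely but did not overlap the promoter alone, and the call was lost without replicate 1 or 3 (adjusted p up to 0.0669).

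E073-P006+ had 0.0617, 0.0206 and 0.00387 against 0.225, 0.263 and 0.263 for P006+ alone, and fell by 3.88 (log2, SE 0.99, n = 3, limma adjusted p = 0.0257). This call was lost without replicate 2 or 3 (adjusted p up to 0.124). E066-P006+ had 0.00820, 0.0288 and 0.0294 against the same promoter values and fell by 3.71 (log2, SE 0.53, n = 3, limma adjusted p = 0.0033), a call kept with any 2 replicates. Against the median construct of P006+ instead of the promoter alone, both calls were lost, with log2 differences of -1.36 for E073-P006+ (limma adjusted p = 0.363) and -1.19 for E066-P006+ (limma adjusted p = 0.2). P006 overlaps no coding gene in RefSeq. The 1 rise of E073 was E073+P016+, at 2.28 on the log2 scale (SE 0.56, n = 3, limma adjusted p = 0.0237). That call was lost without replicate 2 or 3, where 0 of the 21 E073 pairs were higher.

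With the promoter fragments of Tfcp2l1 itself, 49 member pairs of 17 members were measured, 12 with P011 and 37 with P012. Both fragments were weak, with a median construct activity of 0.0618 for P011 and 0.0724 for P012. The members' mean index was 0.59 with P011 and 0.56 with P012, against 1.05 and 1.03 over all cCREs. Of the pairs tested against the promoter alone, 2 of 8 were higher and 0 lower with P011, and 7 of 37 were higher and 11 lower with P012. Over all cCREs, 31.7% of 41 pairs with P011 were higher and 7.32% lower, and 28.7% of 247 pairs with P012 were higher and 30.0% lower.

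For each of the 17 members the index with P011 or P012 was set against the index with all other promoter fragments. 3 members had a higher index with the Tfcp2l1 fragments and 1 a lower index. In the library 26.2% of 130 cCREs were higher and 8.46% lower. E071 had 5.44, 5.07 and 4.89 with the Tfcp2l1 fragments (2 pairs) and 3.60, 3.24 and 3.12 with the others (40 pairs), a difference of 1.81 (SE 0.27, n = 3, limma adjusted p = 0.00286). The replicates did not overlap. Set against the other weak promoter fragments alone, a comparison added after the data were seen, the difference was 0.86 (SE 0.34, n = 3, limma adjusted p = 0.107). The E071 pairs in question were E071+P012-, with activities of 4.42, 3.32 and 3.06, and E071-P012-, with 2.02, 2.92 and 3.32, against 0.152, 0.156 and 0.159 for P012- alone.

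E061 had a difference of 2.78 (SE 0.26, n = 3, limma adjusted p = 0.00086), from 1 Tfcp2l1 pair, E061-P012-, against 21 others; it was 2.19 against the weak fragments. The 1 pair is in the minus orientation and 17 of the others are in plus, so promoter and orientation cannot be told apart here. The other 4 minus pairs had a mean index of 2.50, from -1.62 to 6.20, and E061-P012- had 3.26. E061-P012- had 0.487, 0.967 and 0.759, above P012- alone in every replicate. E058 had a difference of 1.34 (SE 0.42, n = 3, limma adjusted p = 0.0467), again from 1 pair (0.165, 1.501 and 1.505 against -0.059, -0.57 and -0.23). That call was lost without replicate 2 or 3 (adjusted p up to 0.246) and with the replicate as a block. E055 was lower with the Tfcp2l1 fragments (-1.21, -1.17 and -1.39 over 2 pairs against -0.098, 0.11 and -0.18 over 28), a difference of -1.20 (SE 0.22, n = 3, limma adjusted p = 0.00717); it is named although the rule took the largest 3, chosen after its values were seen. The E055 call was lost without replicate 2 or 3 (adjusted p up to 0.0869).

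Turning the cCRE round on the same promoter changed the activity in 48 of 222 comparisons (21.6%), against 23.9% in the library. The plus orientation was higher in 34 of them (15.3%, library 13.3%) and the minus orientation in 14 (6.31%, library 10.5%). With 2 replicates fewer were called, 29 without replicate 1, 7 without replicate 2 and 3 without replicate 3. E068 was higher in plus in 8 of 32 comparisons and in minus in 0. E057 was higher in plus in 5 of 13, E054 in 3 of 14 and E071 in 3 of 18, with 0 in the opposite direction for each. E062 differed in 0 of 9, as did E053 in 0 of 2. E066 (3 plus, 4 minus of 34) and E075 (4 and 4 of 26) were mixed. Over all pairs of an orientation, the mean index was 3.96 for E071+ (20 pairs) and 3.23 for E071- (22 pairs). It was 1.01 for E057+ (27 pairs) and 0.22 for E057- (13 pairs), and 1.04 for E068+ (32 pairs) and 0.092 for E068- (35 pairs). These means are not matched by promoter. On the same promoter, the median log2 difference of plus from minus was 0.28 for E071, 1.24 for E057 and 0.23 for E068.

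The largest differences were those of E066 on P031-, at 6.70 on the log2 scale (SE 0.34, n = 3, limma adjusted p = 0.000331), with the values given above, and of E061. E061 on P016- had 0.0306, 0.0683 and 0.0269 in plus and 3.44, 2.77 and 3.41 in minus, a difference of -6.38 (SE 0.40, n = 3, limma adjusted p = 0.000726). On P015+ the plus values were 0.0465, 0.0981 and 0.00674, and the difference was -5.92 (SE 0.99, n = 3, limma adjusted p = 0.0119). The orientations did not overlap in any of these. The P015+ call was lost whichever replicate was left out (adjusted p from 0.0507 to 0.0772).

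In pairs of cCREs, 5699 pairs with a member first were tested against the second cCRE alone. 1987 were higher (34.9%, library 34.0%) and 920 lower (16.1%, library 17.4%), with a median log2 change of 0.24 for the members and 0.12 over all 39839 pairs. Without E071 the shares were 31.2% and 17.1% of 5361. With 2 replicates 510 to 838 were lower, the fewest without replicate 3 (567 without replicate 2). Members within the gene had 42.9% higher and 10.1% lower, members before it 28.0% and 22.0%, and members beyond it 32.2% and 18.0%. Of the 3051 pairs of members beyond the gene, 338 had E071 first, and 312 of those 338 were higher. The share beyond the gene therefore rests in part on E071. The comparisons of all places share the alone values of the second cCREs, and many share a member.

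E071 in first position was higher than the second cCRE alone in 312 of 338 pairs (92.3%) and lower in 2, with a median log2 change of 3.59. The count was 299 to 309 with 2 replicates. Against E071 alone, a baseline added after the data were seen, 49 of the 338 pairs were higher and 154 lower. By the same baseline 123 of 342 E057 pairs were higher and 141 lower, and 86 of 227 E062 pairs were higher and 67 lower. E054 was higher in 64.1% of 323 pairs (median 1.49), E062 in 63.7% of 226 (median 1.78) and E057 in 61.1% of 339 (median 1.38). E072 (50.0% of 108), E063 (43.2% of 206), E058 (42.4% of 92), E068 (40.5% of 560) and E059 (38.0% of 468) followed. The pairs lower than the second cCRE were most frequent for E073, with 53.5% of 142 and a median of -1.53, then E078 (37.3% of 51), E077 (36.9% of 122), E051 (33.8% of 447) and E067 (33.6% of 122). Some of these counts were smaller with 2 replicates. Without replicate 3 the lower pairs went from 151 to 72 for E051 and from 41 to 15 for E067, and without replicate 2 they were 92 and 24, and 12 in place of 19 for E078. Without replicate 2 the higher pairs went from 178 to 98 for E059, from 227 to 145 for E068 and from 89 to 59 for E063. The neighbours E072 and E073, 7 bp apart, had medians of 0.75 and -1.53. E074 was measured in second position, where 12 of 38 pairs were higher than E074 alone (library 34.0%) and 0 lower (library 17.4%). E074+ alone was itself low, with a log2 difference of -1.51 from the median cCRE.

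The 5 largest rises in cCRE pairs had different first members, except for E075. E072+E095+ had 5.77, 5.02 and 5.93 against 0.0154, 0.0430 and 0.0374 for E095+ alone, a log2 rise of 7.57 (SE 0.42, n = 3, limma adjusted p = 4.55e-05). E075-E076+ had 3.64, 2.89 and 3.84 against 0.0124, 0.0370 and 0.0929 for E076+ alone, a rise of 6.62 (SE 0.71, n = 3, limma adjusted p = 0.000505). E071+E028- had 6.33, 5.68 and 5.50 against 0.0488, 0.0546 and 0.0876 for E028- alone, a rise of 6.56 (SE 0.28, n = 3, limma adjusted p = 3.25e-05). In each of these the pair and the second cCRE alone did not overlap. Against the first cCRE alone, a baseline added after the data were seen, the log2 differences were 3.58 for E072+E095+, 4.33 for E075-E076+ and 0.87 for E071+E028-.

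E062+E119+ had 3.66, 3.17 and 2.82 against 0.0258, 0.0604 and 0.0330 for E119+ alone, a rise of 6.42 (SE 0.35, n = 3, limma adjusted p = 4.51e-05). E075-E201+ had 1.35, 3.71 and 2.71 against 0.00291, 0.0734 and 0.0124 for E201+ alone, a rise of 7.43 (SE 1.16, n = 3, limma adjusted p = 0.00256). The last call was lost without replicate 3 (adjusted p = 0.0505). Against the first cCRE alone, the log2 differences were 2.93 for E062+E119+ and 3.81 for E075-E201+. E075- alone had a log2 difference of 0.84 from the median cCRE and E072+ one of 2.29.

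The 3 largest falls all had E077+ second, the fragment with activities of 1.26, 1.41 and 1.57 alone. E066+E077+ had 0.001305, 0.0410 and 0.0463, and fell by 6.70 (log2, SE 1.38, n = 3, limma adjusted p = 0.0082). E075-E077+ had 0.01002, 0.0667 and 0.00990, and fell by 6.23 (log2, SE 0.77, n = 3, limma adjusted p = 0.000908). E066-E077+ had 0.00317, 0.0930 and 0.0445, and fell by 5.90 (log2, SE 1.22, n = 3, limma adjusted p = 0.00814), a call lost without replicate 3 (adjusted p = 0.069). Against the median construct with E077+ second, all 3 calls were lost, with log2 differences of -1.80, -1.32 and -0.99 (limma adjusted p = 0.337, 0.23 and 0.543). These are 3 of 26 pairs with E077+ second, of which 24 were lower than E077+ alone and 1 higher.

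E077+ had a high value by itself and low values in company. Its pairs in second position had a median log2 activity of -4.15, close to -4.06 for E077- in the same place, against 0.49 for E077+ alone and -2.52 over all cCRE pairs. In first position the medians were -3.78 for E077+ and -3.83 for E077-. With promoter fragments the mean index was -0.18 over 8 E077+ pairs and -0.066 over 6 E077- pairs. Over both orientations together it was -0.13, and 1 of 14 E077 pairs was higher and 2 lower. The alone value comes from the pool of single fragments and the pair values from another pool; the part of the pool in the difference was not tested.

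Where both cCREs were members, 747 pairs were tested. Of these, 298 were higher than the second alone (39.9%, library 34.0%) and 106 lower (14.2%, library 17.4%). E071 was first in 48 of the 298 rises. E071 before another member was higher in 48 of 49 pairs with 18 partners, with log2 rises from 0.69 to 5.63 and a median of 4.19. The exception was E071+E073+, with 0.166, 0.461 and 0.371 against 0.0900, 0.131 and 0.167 for E073+ alone, a log2 difference of 1.28 (SE 0.46, n = 3, limma adjusted p = 0.057). Placed second, E071+ gave 18 of 156 pairs higher than E071+ alone and 36 lower, and E071- gave 22 of 86 higher and 12 lower.

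The order of 2 cCREs changed the activity in 984 of 2665 comparisons with a member (36.9%), against 38.7% in the library. Without replicate 2 the count was 407 and without replicate 3 it was 446. E066 was higher when first in 136 of 488 comparisons and when second in 46, with a median log2 difference of 0.41. E059 was higher when first in 90 of 319 and when second in 31 (median 0.37), and E073 when first in 11 of 17 and when second in 0 (median 2.42). E068 went the other way, with 59 of 375 higher when first and 130 when second (median -0.59), as did E071, with 9 and 41 of 150 (median -0.39).

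The 3 largest order differences kept their call with any 2 replicates. For E029- and E064-, the pair with E029 first had 3.14, 2.18 and 2.65 and the pair with E064 first had 0.00317, 0.0323 and 0.0218, a log2 difference of 7.65 (SE 0.89, n = 3, limma adjusted p = 0.00179). For E051+ and E291+, the values were 4.57, 4.59 and 5.20 with E051 first and 0.0210, 0.0454 and 0.0399 with E291 first, a difference of 7.15 (SE 0.34, n = 3, limma adjusted p = 0.000268). For E068- and E245+, they were 2.13, 2.60 and 2.69 with E068 first and 0.00601, 0.0225 and 0.0555 with E245 first, a difference of 6.97 (SE 0.80, n = 3, limma adjusted p = 0.00172). The orders did not overlap in any of the 3. E051 in first position otherwise rarely raised a pair, with 6.94% of 447 pairs higher than the second cCRE alone (library 34.0%). E064 was second in its more active order. In second position, 94 of 251 E064 pairs were higher than E064 alone and 13 lower. In first position, 32 of 302 E064 pairs were higher than the second cCRE alone.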

How the data were processed

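Of the 46 samples of the series, the 3 cDNA samples of the Tfcp2l1 Upstream libraries were used, with the 2 plasmid DNA samples as their input, per the labels. The authors' deposited activities are a linear ratio of cDNA to plasmid barcodes per biological replicate. The boost index was deposited by the authors on the log2 scale. For all 5065 pairs compared, it equalled the log2 of the geometric mean of the replicates over the median cCRE (tolerance 0.001). Bowtie2 and mm10 are named in the submitters' processing notes, without a version. How barcodes were counted, filtered and averaged is not given in the sources used here. 16 value columns matched no sample's labels and were not used.

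Activities were taken as log2, without a pseudocount, after leaving out constructs with a replicate at 0. Each comparison was fitted with limma 3.58.1 (R 4.3.3; tables with Python 3.11.15, pandas 2.3.3 and numpy 2.4.6) over all constructs of the library, with both sides of a comparison as groups of 3 and Benjamini-Hochberg adjustment over the library at 0.05. Both sides come from the same 3 RNA samples, so the replicate number pairs the values, and the fit with the replicate as a block was an alternative. The others were each replicate left out, a pseudocount of 0.01, activities under 0.05 left out, quantile scaling, an intensity trend and other baselines. The fit was also run on simulated promoter pairs with independent noise. They lacked pairing by replicate, shared promoter values, zeros and the gap between pools, so that run says nothing about those features. Named were the members with the 5 highest and 3 lowest mean index, the 5 largest rises and 3 largest falls of each kind of pair, and the 3 largest differences in orientation, order and promoter. The members and these rules were chosen with earlier results of these data known. Depth is unknown, so no counting interval is given. 0 of the 22 members overlap a RefSeq promoter window, so their own sequences were not used here.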

Additional observations from a re-analysis of the deposited data

How the results depend on the processing

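With the replicate as a block (the pairing of both sides within an RNA sample), the calls were 133 higher and 134 lower for promoter pairs, 1919 and 895 for cCRE pairs, 15 and 14 for single cCREs, 43 for orientation, 888 for order and 4 for the Tfcp2l1 promoters; no count moved by over 1.5 times, and of the named calls the Tfcp2l1 promoter call of E058 was lost. Leaving out 1 replicate at a time gave 75 to 127 higher and 46 to 133 lower promoter pairs, 510 to 838 lower cCRE pairs, 9 to 16 higher and 6 to 14 lower single cCREs, 3 to 29 orientation calls, 407 to 669 order calls and 2 to 4 Tfcp2l1 promoter calls. Against the median construct, 157 promoter pairs were higher and 53 lower. Against the first cCRE alone, a baseline added later, 290 were higher and 170 lower. Against the empty construct, also added later, 8 single cCREs were higher and 24 lower. The direction turned for E071+P014+ (-0.48) and E071-P014+ (-0.14) against E071 alone, for the mean index of E061 taken as a median (-0.19), and for the mean boost index of E058 (-0.021) as a median (0.19) and with a pseudocount (0.062), while leaving out replicates gave -0.13 to 0.025. As a median, E055 (0.057 to -0.031) and E065 (-0.0023 to 0.093) also changed sign, by less than 1 SD. Against the median construct, 5 of the 6 named falls lost their call. The causes were not tested. Leaving out low activities was not run for the Tfcp2l1 promoter comparison, which uses indices. Limits: depth per construct is unknown, the 3 replicates share the same plasmids, and low activities vary most between replicates, with 45 of the members' promoter pairs at 0 in replicate 1.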
